A study of Homo sapiens with 6 samples.

Results

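Aminoacyl-tRNA synthetases are the enzymes that join each amino acid to its tRNA. Of the 28495 genes in the deposited table, 35 were taken here because their identifiers map to a named list of synthetases. By their known roles, 19 of them encode cytosolic enzymes and 16 encode mitochondrial enzymes. GARS1 and KARS1 make both the cytosolic and the mitochondrial enzyme from the same gene, and QARS1 was kept on the cytosolic side. The family as a whole was selected on the differences in FPKM between sh-CFB and sh-NC libraries, which were known when the list was drawn up, AARS1 and WARS1 being among the lowest genes of that contrast. Counts and p-values over that contrast therefore describe where these genes stand and are not independent evidence that the family moved.

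The libraries came from NCI-H1299, an established human lung cancer line. In the sh-CFB group complement factor B, CFB, a protease component of the alternative complement pathway, was targeted for silencing, and sh-NC cells were the control. Each group had 3 libraries, labelled as short-hairpin samples in the titles and with siRNA-like column names, so the form of the reagent is not settled. All 6 libraries were made from total RNA with a stranded mRNA kit, and nothing in the labels says that they came from separate cultures, so a p-value reflects how these particular samples scatter, possibly for technical reasons.

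Levels are given in the FPKM that the authors deposited, which scale reads to gene length and library size. Recovered totals ran from 26.2 M to 38.4 M reads in sh-CFB libraries and from 32.9 M to 40.0 M reads in sh-NC libraries. CFB was close to undetected, at 0, 0 and 0.0110 FPKM in sh-CFB and 0.00536, 0.0317 and 0.0321 FPKM in sh-NC. At such levels the silencing cannot be checked, either by library or by group. Among markers taken to be high in the line, VIM was at 434.8 ± 42.9 FPKM in sh-CFB and 407.4 ± 34.3 FPKM in sh-NC (SD, n = 3 each). AXL was at 212.0 ± 30.5 FPKM in sh-CFB and 229.3 ± 17.7 FPKM in sh-NC. CDH2, of the same list, was low, at 1.81 ± 0.34 FPKM in sh-CFB and 2.21 ± 0.62 FPKM in sh-NC. CDH1 and EPCAM, taken to be low, together stayed at or under 0.125 FPKM. The summed FPKM of the immune, fibroblast, endothelial and erythroid markers found stayed at or under 0.282 per list in every library. The libraries also differed with GC content. Across genes, which are not independent replicates, the Spearman correlation of a library's deviations with GC was 0.60, -0.10 and -0.16 for sh-CFB replicates 1, 2 and 3, against -0.55, -0.25 and 0.23 for the sh-NC replicates in the same order.

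As background, charging of tRNA supplies the ribosome, and cells run separate sets of enzymes, all encoded in the nucleus, for translation in the cytosol and in the mitochondrion. Several cytosolic synthetases sit in a multisynthetase complex held together by the scaffold proteins AIMP1, AIMP2 and EEF1E1. Many cytosolic synthetase genes are known targets of ATF4, the transcription factor of the amino acid response, which binds composite C/EBP-ATF elements together with C/EBP proteins. Mitochondrial synthetases are generally not counted among those targets.

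Most cytosolic synthetase mRNAs stood lower in sh-CFB cells, led by AARS1, WARS1 and MARS1, while QARS1, FARSA and VARS1 did not. The groups were compared with limma's moderated test on log2(FPKM + 0.5), over 12466 genes whose mean reached 0.5 FPKM, and an adjusted p under 0.05 was taken as past the test. Of the 19 cytosolic members 11 fell, 0 rose and 8 did not pass, where 5.71% of all tested genes were called lower and 1.74% higher. At an unadjusted p under 0.05, 16 were lower and 1 was higher. The share of all tested genes at an unadjusted p under 0.05 was not computed. Unadjusted counts here and below therefore have no background to be read against. In bulk RNA, less of an mRNA per cell and fewer cells with much of it cannot be told apart. The median cytosolic difference was -0.80 on the log2 scale, against -0.15 for all tested genes. Groups did not overlap and sh-CFB was lower for 16 of the 19, a pattern found in 23.6% of all tested genes. Leaving out sh-CFB replicate 1 gave 7 calls, leaving out sh-CFB replicate 2 gave 3, and leaving out sh-CFB replicate 3 gave 7. Leaving out sh-NC replicate 1 gave 6 calls, leaving out sh-NC replicate 2 gave 0, and leaving out sh-NC replicate 3 gave 12. Over all 12466 tested genes the calls of lower genes, 712 with all libraries, came to 407, 31 and 335 when sh-CFB replicate 1, 2 or 3 was left out, and to 206, 14 and 414 when sh-NC replicate 1, 2 or 3 was left out. Without sh-NC replicate 2, where limma called 0, the unadjusted count was 15 and the lowest adjusted p was 0.0600.

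**Figure D1:**
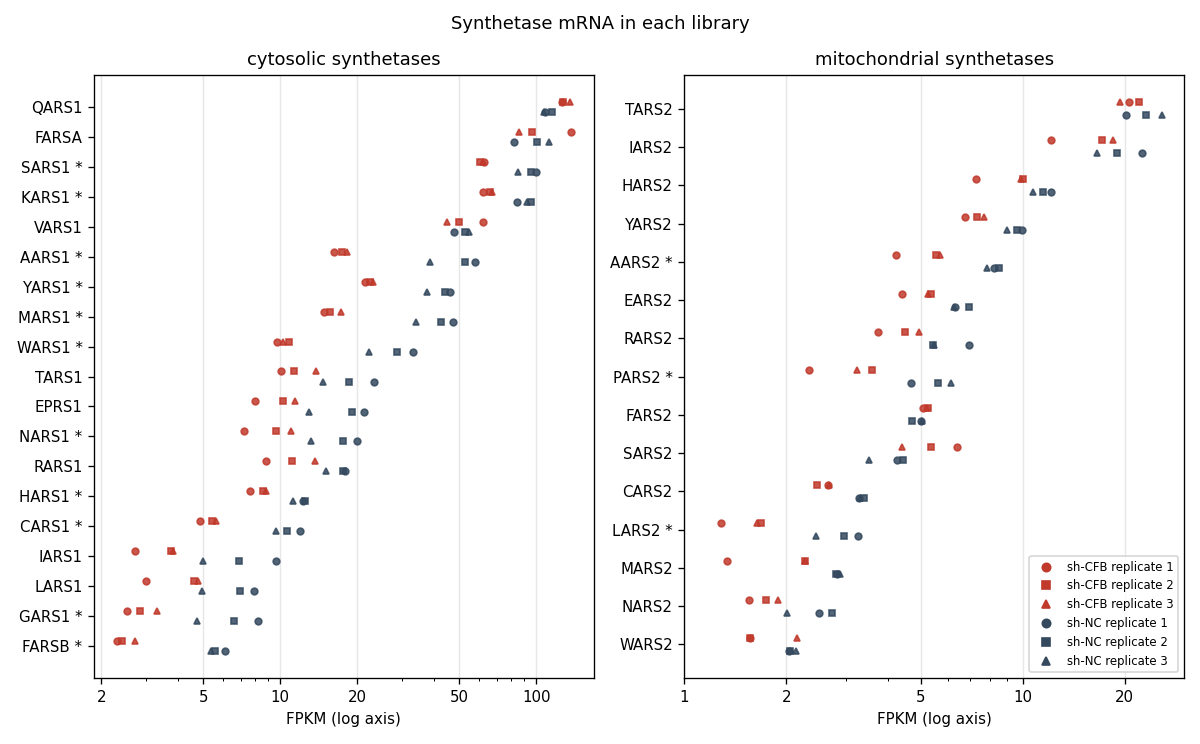
FPKM on a log axis for each tested synthetase in each of the 6 libraries, sh-CFB in red above sh-NC in dark blue, with the marker shape giving the replicate and an asterisk marking genes past the test. The red points lie left of the blue ones for 16 of 19 cytosolic genes, while QARS1, FARSA and VARS1 do not follow; VARS2, near 0 in all libraries, is not drawn.

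AARS1, the alanyl-tRNA synthetase, showed the lowest difference of the family. It lies on chromosome 16 from 70252295 to 70289543 on the reverse strand (GRCh38, GENCODE 29, as for the spans of all genes below). It stood at 16.2, 17.5 and 18.2 FPKM in sh-CFB replicates 1, 2 and 3, against 57.7, 52.6 and 38.5 FPKM in sh-NC replicates 1, 2 and 3. The highest sh-CFB library held 0.473 times the lowest sh-NC library, and the 3 sh-CFB libraries were close together while the sh-NC libraries spread. The fitted difference was -1.47 (SE 0.15, limma adjusted p = 0.00753), which is 2.78-fold lower, and 0.104% of tested genes had a lower one.

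MARS1 and WARS1 came next. MARS1 loads methionine, including onto the initiator tRNA, and lies on chromosome 12 from 57475445 to 57517569. MARS1 had 14.9, 15.6 and 17.3 FPKM in sh-CFB, against 47.5, 42.6 and 33.9 FPKM in sh-NC, a difference of -1.34 (SE 0.14, limma adjusted p = 0.00753). Other genes on the opposite strand, DDIT3 and ARHGAP9 among them, cover 12.4% of its exon bases, and the strand setting of the counting is not given in the sources used here. DDIT3 itself had 6.68, 6.74 and 9.22 FPKM in sh-CFB, against 19.98, 15.7 and 9.57 FPKM in sh-NC (-0.91, limma adjusted p = 0.0741), and its part in the MARS1 values was not tested. Opposite-strand genes likewise cover 10.6% of WARS1's exon bases. WARS1, the tryptophanyl-tRNA synthetase, lies on chromosome 14 from 100333788 to 100376805. WARS1 had 9.72, 10.8 and 10.2 FPKM in sh-CFB, against 33.0, 28.7 and 22.2 FPKM in sh-NC, a difference of -1.39 (SE 0.15, limma adjusted p = 0.00778). In all 3 genes every sh-CFB library lay below every sh-NC library and sh-NC replicate 3 was the lowest control. AARS1, MARS1 and WARS1 each passed the test in 16 of the 17 alternative settings that had no replicate block, failing without sh-NC replicate 2. Of the other cytosolic members that fell, CARS1, FARSB and YARS1 passed in 15 of the 17 settings, SARS1 in 11, GARS1 in 10, KARS1 in 7, and HARS1 and NARS1 in 5.

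The other cytosolic members that fell ranged from -1.06 to -0.47. FARSB, the beta subunit of the phenylalanyl enzyme, had 2.30, 2.40 and 2.71 FPKM in sh-CFB, against 6.09, 5.57 and 5.37 FPKM in sh-NC (-1.06, SE 0.13, limma adjusted p = 0.0106). GARS1, which serves cytosol and mitochondria with glycine, had 2.53, 2.84 and 3.30 FPKM in sh-CFB, against 8.21, 6.61 and 4.74 FPKM in sh-NC (-1.03). CARS1, the cysteinyl enzyme, had 4.86, 5.43 and 5.62 FPKM in sh-CFB, against 12.0, 10.6 and 9.62 FPKM in sh-NC (-0.95). In these genes the groups were clearly apart, with the sh-CFB libraries tighter than the sh-NC libraries for GARS1 and CARS1. YARS1, the tyrosyl enzyme, had 21.4, 22.4 and 23.1 FPKM in sh-CFB, against 46.1, 43.9 and 37.5 FPKM in sh-NC (-0.91). NARS1, the asparaginyl enzyme, had 7.23, 9.60 and 11.02 FPKM in sh-CFB, against 19.96, 17.6 and 13.2 FPKM in sh-NC (-0.83, limma adjusted p = 0.0463), with the nearest libraries of the groups close to each other.

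The 3 cytosolic members that fell least were SARS1, HARS1 and KARS1. SARS1, the seryl enzyme, had 62.8, 60.5 and 61.7 FPKM in sh-CFB, against 99.6, 95.2 and 84.9 FPKM in sh-NC (-0.59, SE 0.09). KARS1, the lysyl enzyme of both compartments, had 61.9, 65.8 and 67.2 FPKM in sh-CFB, against 84.1, 95.2 and 91.9 FPKM in sh-NC (-0.47). HARS1, the histidyl enzyme, had 7.62, 8.60 and 8.78 FPKM in sh-CFB, against 12.3, 12.5 and 11.3 FPKM in sh-NC (-0.50). After removal of GC and length trends per library, SARS1 (-0.35), HARS1 (-0.20) and KARS1 (-0.17) no longer passed, while EPRS1 (-0.54), IARS1 (-0.67) and LARS1 (-0.39) did, so the count was again 11.

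Of the 8 cytosolic members that did not pass, 5 also had every sh-CFB library below every sh-NC library. IARS1, the isoleucyl enzyme, had 2.699, 3.75 and 3.82 FPKM in sh-CFB, against 9.60, 6.93 and 5.01 FPKM in sh-NC (-0.94, SE 0.24, limma adjusted p = 0.0543). EPRS1, which carries the glutamyl and the prolyl enzyme in a single protein, had 7.96, 10.2 and 11.4 FPKM in sh-CFB, against 21.3, 19.1 and 13.0 FPKM in sh-NC (-0.80, limma adjusted p = 0.0561). TARS1, the threonyl enzyme, had 10.04, 11.4 and 13.8 FPKM in sh-CFB, against 23.2, 18.6 and 14.7 FPKM in sh-NC (-0.65). In these 3 genes sh-NC replicate 3 lay closest to the sh-CFB libraries. LARS1, the leucyl enzyme, had 2.98, 4.61 and 4.79 FPKM in sh-CFB, against 7.91, 6.98 and 4.95 FPKM in sh-NC (-0.62, limma adjusted p = 0.134). RARS1, the arginyl enzyme, had 8.78, 11.2 and 13.7 FPKM in sh-CFB, against 17.9, 17.7 and 15.0 FPKM in sh-NC (-0.59, limma adjusted p = 0.0728).

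The remaining cytosolic members QARS1, FARSA and VARS1 did not share this direction. QARS1, the glutaminyl enzyme, had 126.3, 127.5 and 135.1 FPKM in sh-CFB, against 108.1, 115.1 and 107.2 FPKM in sh-NC, so that every sh-CFB library was above every sh-NC library. Its difference was 0.23 (SE 0.09, limma adjusted p = 0.137), and removing GC and length trends brought it to 0.36, past the test. FARSA, the alpha subunit of the phenylalanyl enzyme, had 136.7, 96.5 and 86.0 FPKM in sh-CFB, against 81.9, 100.3 and 112.2 FPKM in sh-NC. VARS1, the valyl enzyme, had 62.1, 50.2 and 44.8 FPKM in sh-CFB, against 47.8, 52.9 and 54.5 FPKM in sh-NC. Both genes overlapped between groups, with sh-CFB replicate 1 the highest library and differences of 0.10 for FARSA and 0.01 for VARS1 that turned negative when either replicate 1 library was left out (-0.10 and -0.03 for FARSA, -0.12 and -0.05 for VARS1, without the sh-CFB and the sh-NC library). FARSA and VARS1 transcripts have GC contents of 60.3% and 62.6%, against a median of 49.3% over tested genes. After removal of GC and length trends per library their differences were 0.04 and -0.08, and neither passed the test. The part of the GC trend alone was not tested.

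Of the subunits of the phenylalanyl enzyme, which work together as a tetramer, FARSB fell while the groups overlapped for FARSA. FPKM of FARSA divided by that of FARSB was 59.4, 40.2 and 31.8 in sh-CFB replicates 1, 2 and 3, against 13.5, 18 and 20.9 in sh-NC replicates 1, 2 and 3. On the log2(FPKM + 0.5) scale this ratio averaged 5.14 ± 0.44 in sh-CFB and 3.99 ± 0.32 in sh-NC (SD, n = 3 each), a difference of 1.16. The ratio was taken up after the values were seen and has no test. FARSA and FARSB differ in GC content (60.3% and 41.6%), and the length behind FARSB's FPKM was 6761 bases, against 3369 annotated exon bases, so the level of the ratio depends on that length.

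Among the mitochondrial enzymes PARS2, LARS2 and AARS2 stood lowest in sh-CFB cells, with SARS2 and FARS2 above 0. The test called 3 of 15 lower and 0 higher, and 12 did not pass, against the same 5.71% called lower and 1.74% called higher over all tested genes. At an unadjusted p under 0.05, 8 were lower and 0 were higher, again without a share over all tested genes. The median difference was -0.35, against -0.15 for all tested genes. The groups did not overlap and sh-CFB was lower for 10 members, as for 23.6% of all tested genes. They did not overlap and sh-CFB was higher for 1 member, as for 10% of all tested genes. The 3 calls did not survive the removal of any single library: limma called 0 without each of the 6 in turn, with 4 to 8 members lower at an unadjusted p under 0.05. The differences in those fits ran from -0.87 to -0.60 for PARS2, from -0.83 to -0.64 for LARS2 and from -0.70 to -0.51 for AARS2, while the calls of lower genes over all tested genes dropped to between 14 and 414, against 712 with all libraries. With median-of-ratios factors, which centre all genes near 0.02, limma also called 0 mitochondrial members (3 unadjusted) and 7 cytosolic ones.

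The mitochondrial members that fell were PARS2, LARS2 and AARS2. PARS2, the prolyl enzyme, had 2.33, 3.59 and 3.23 FPKM in sh-CFB, against 4.66, 5.598 and 6.12 FPKM in sh-NC (-0.76, SE 0.18, limma adjusted p = 0.0479). LARS2, the leucyl enzyme, had 1.28, 1.68 and 1.63 FPKM in sh-CFB, against 3.25, 2.96 and 2.44 FPKM in sh-NC (-0.73, SE 0.17, limma adjusted p = 0.0433). AARS2, the alanyl enzyme, had 4.23, 5.54 and 5.68 FPKM in sh-CFB, against 8.25, 8.52 and 7.84 FPKM in sh-NC (-0.63, SE 0.14, limma adjusted p = 0.0395). In all 3 genes the groups did not overlap, and sh-CFB replicate 1 was the lowest library. LARS2 passed in 7 of the 17 alternative settings with no replicate block, AARS2 in 6 and PARS2 in 5.

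Of the mitochondrial members that did not pass, MARS2 (-0.47), RARS2 (-0.40) and NARS2 (-0.38) had the lowest differences, and IARS2 (-0.29) had overlapping groups. MARS2 had 1.34, 2.28 and 2.27 FPKM in sh-CFB, against 2.83, 2.80 and 2.89 FPKM in sh-NC. RARS2 had 3.74, 4.49 and 4.94 FPKM in sh-CFB, against 6.92, 5.44 and 5.46 FPKM in sh-NC. NARS2 had 1.55, 1.74 and 1.89 FPKM in sh-CFB, against 2.50, 2.73 and 2.01 FPKM in sh-NC. In MARS2 replicate 1 stood well below the other sh-CFB libraries, and in NARS2 the nearest libraries of the groups almost met. FARS2, the mitochondrial phenylalanyl enzyme, had 5.06, 5.24 and 5.22 FPKM in sh-CFB, against 5.01, 4.71 and 5.04 FPKM in sh-NC, a difference of 0.07. WARS2, the mitochondrial partner of WARS1, had 1.56, 1.56 and 2.15 FPKM in sh-CFB, against 2.03, 2.05 and 2.14 FPKM in sh-NC (-0.20, limma adjusted p = 0.491), and TARS2 had 20.6, 22.0 and 19.3 FPKM in sh-CFB, against 20.1, 23.1 and 25.7 FPKM in sh-NC. Groups overlapped for WARS2 and TARS2, and FARS2 was nearly level across the 6 libraries. CARS2 had 2.66, 2.47 and 2.68 FPKM in sh-CFB, against 3.28, 3.39 and 3.31 FPKM in sh-NC (-0.30). HARS2 had 7.27, 10.04 and 9.90 FPKM in sh-CFB, against 12.1, 11.5 and 10.7 FPKM in sh-NC (-0.33). YARS2 had 6.77, 7.31 and 7.66 FPKM in sh-CFB, against 9.92, 9.60 and 8.96 FPKM in sh-NC (-0.37). In these partners of CARS1, HARS1 and YARS1 every sh-CFB library was below every sh-NC library, and EARS2 (-0.35) shared that pattern.

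SARS2 and VARS2 need care. SARS2, the mitochondrial seryl enzyme, had 6.37, 5.37 and 4.40 FPKM in sh-CFB, against 4.24, 4.43 and 3.51 FPKM in sh-NC (0.36, limma adjusted p = 0.222). On the same strand, 46.2% of its exon bases also belong to MRPS12 and another annotated gene, so its reads are uncertain. VARS2 held 0, 8 and 5 reads in sh-CFB and 4, 4 and 10 reads in sh-NC, below the filter on low values. It was the only member not tested, and 22.0% of its exon bases are shared on the same strand with GTF2H4.

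**Figure D2:**
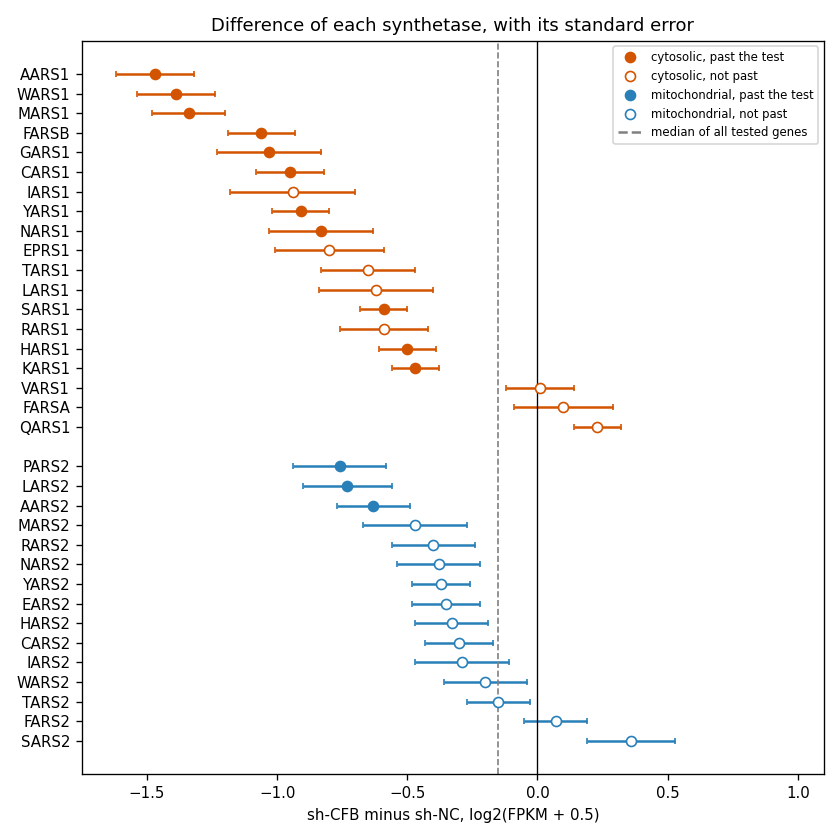
Difference of each tested synthetase, sh-CFB minus sh-NC on the log2(FPKM + 0.5) scale, with its standard error; filled points passed the test and the dashed line is the median of all tested genes (-0.15). Cytosolic genes reach from -1.47 to 0.23 and mitochondrial genes from -0.76 to 0.36.

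The enzymes of the cytosol and of the mitochondrion for the same amino acid can be set against each other within a library. The scaling of libraries then cancels, apart from the effect of the added 0.5 at low levels. Of 16 such pairs, 14 had a lower cytosolic to mitochondrial ratio in sh-CFB, and for 9 every sh-CFB library was below every sh-NC library. Over single genes that pattern was found in 23.6%, and its share over other gene ratios was not computed. The pairs are not all separate, since EPRS1 and FARS2 recur. A library's GC trend does not cancel where partners differ in GC, as do WARS1 and WARS2 (51.8% and 42.4%) or FARSB and FARS2 (41.6% and 52.4%). The median change in the log2 ratio was -0.52. With 3 libraries against 3 a two-sided exact permutation test cannot go below 0.1, which those 9 pairs reached, and adjusted over the 16 pairs the exact permutation p was 0.178 or more. No pair therefore passes, and the values below are descriptions.

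WARS1/WARS2 had the largest change. Its log2 ratio was 2.31, 2.46 and 2.02 in sh-CFB, against 3.72, 3.52 and 3.11 in sh-NC, a change of -1.19. FARSB/FARS2 was at -0.99, -0.99 and -0.83 in sh-CFB, against 0.26, 0.22 and 0.08 in sh-NC (-1.12). SARS1/SARS2 (-0.95), MARS1/MARS2 (-0.87) and AARS1/AARS2 (-0.84) followed, with groups that did not overlap. In these amino acids the cytosolic mRNA was lower relative to its mitochondrial counterpart in every sh-CFB library. The SARS1/SARS2 ratio is uncertain, since 46.2% of SARS2's exon bases also belong to other genes on the same strand. In AARS1/AARS2, the log2 ratio was 1.82, 1.58 and 1.60 in sh-CFB, against 2.73, 2.56 and 2.23 in sh-NC, although AARS2 itself fell.

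Among the 7 pairs whose groups overlapped, several had small changes. HARS1/HARS2 was at 0.06, -0.21 and -0.17 in sh-CFB, against 0.01, 0.12 and 0.07 in sh-NC; these neighbours start head to head on chromosome 5, and their annotated spans overlap by 437 bases. LARS1/LARS2 changed by 0.11, FARSA/FARS2 by 0.03 and EPRS1/PARS2 by -0.05, all with overlapping groups. In LARS1/LARS2 the gene differences themselves were -0.62 for LARS1, which did not pass, and -0.73 for LARS2. The direction of EPRS1/PARS2 and FARSA/FARS2 turned when single libraries were left out, with ranges of -0.33 to 0.19 and of -0.18 to 0.18.

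**Figure D3:**
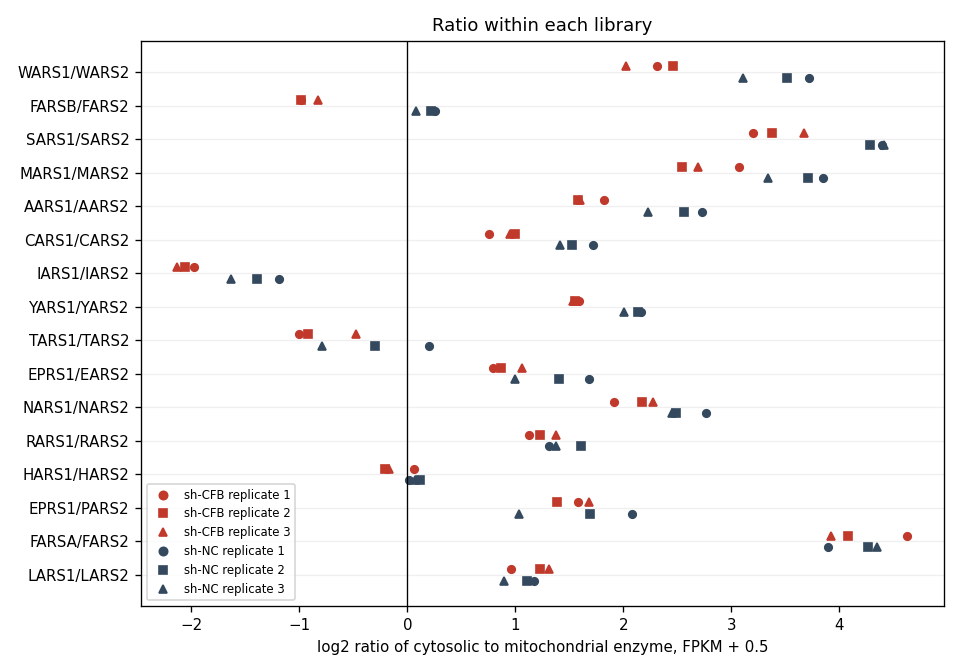
The log2 ratio of the cytosolic to the mitochondrial enzyme (FPKM + 0.5) within each library, for 16 pairs, sh-CFB in red above sh-NC in dark blue. The ratios lie further left in sh-CFB without overlap for 9 pairs and overlap for the other 7, which are TARS1/TARS2, EPRS1/EARS2, RARS1/RARS2, HARS1/HARS2, EPRS1/PARS2, FARSA/FARS2 and LARS1/LARS2.

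Levels differed widely within the family. In sh-NC libraries the highest members by FPKM were QARS1 (110.2 ± 4.29), FARSA (98.2 ± 15.3), SARS1 (93.2 ± 7.57) and KARS1 (90.4 ± 5.70; SD, n = 3 each), whose neighbours in this order overlap or lie within a spread of each other. VARS1 followed at 51.7 ± 3.47 FPKM, below every KARS1 value. In sh-CFB libraries QARS1 averaged 129.7 ± 4.80 and FARSA 106.4 ± 26.8 FPKM, ahead of KARS1 at 65.0 ± 2.73 and SARS1 at 61.7 ± 1.12 FPKM. The median level was 11.2 FPKM in sh-CFB and 18.8 FPKM in sh-NC for cytosolic members, and 4.69 FPKM in sh-CFB and 5.19 FPKM in sh-NC for mitochondrial members.

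Levels between genes depend on the gene length that the authors used, which the FPKM steps reveal. For 7 members that length was over 1.5 times the annotated exon length, up to 4.18 times for GARS1. On annotated lengths AARS1, ranked 6 by deposited FPKM in sh-NC, would rank 1, at 39.4 FPKM in sh-CFB and 113.0 FPKM in sh-NC, and GARS1 would stand at 12.1 FPKM in sh-CFB and 27.3 FPKM in sh-NC. The ratio between groups is the same on either length, apart from the small effect of the added 0.5.

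The libraries themselves were ordered alike across the cytosolic members. Among sh-CFB libraries, replicate 1 was the lowest for 16 of the 19, as it was for 65.3% of all tested genes, and among sh-NC libraries replicate 3 was the lowest for 16, as it was for 54.2% of all tested genes. The median deviation of cytosolic members from their own mean was -0.61, -0.34 and -0.23 in sh-CFB replicates 1, 2 and 3 and 0.62, 0.46 and 0.16 in sh-NC replicates 1, 2 and 3, on the log2 scale. Mitochondrial members had median deviations of -0.34, -0.16 and -0.08 in the sh-CFB libraries, against 0.23, 0.17 and 0.12 in the sh-NC libraries. The spread among controls was thus wider in the cytosolic set, and the nearest libraries of the groups were sh-CFB replicate 3 and sh-NC replicate 3 in both sets.

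Within the multisynthetase complex, 2 of 7 synthetases fell (MARS1 and KARS1), 0 rose and 5 did not pass, with a median of -0.62. At an unadjusted p under 0.05, the other members were lower except QARS1, which was higher. Of the 12 cytosolic members outside the complex 9 fell, 0 rose and 3 did not pass, with a median of -0.87. Over all tested genes 5.71% were called lower and 1.74% higher. Every sh-CFB library was below every sh-NC library for 6 of the 7 inside and 10 of the 12 outside, as for 23.6% of all tested genes. The difference between members inside and outside the complex was not tested. Among the complex's scaffolds AIMP2 fell, with 10.03, 10.9 and 10.8 FPKM in sh-CFB, against 16.4, 18.6 and 18.2 FPKM in sh-NC (-0.72, SE 0.10, limma adjusted p = 0.0130). EEF1E1 (-0.44) and AIMP1 (-0.07) did not pass. By structural class, 5 of 17 tested class I enzymes and 9 of 16 class II enzymes fell, against 5.71% of all tested genes, EPRS1 holding both folds.

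Of the 13 cytosolic members known as ATF4 targets 8 fell, 0 rose and 5 did not pass, with a median of -0.91, where 5.71% of all tested genes were called lower and 1.74% higher. Of the 6 others, 3 fell (FARSB, HARS1 and KARS1), 0 rose and 3 did not pass, with a median of -0.49. The share of members that fell was not tested between these lists. In the amino acid response outside the family, 8 of 23 tested genes fell, 0 rose and 15 did not pass, against the same 5.71% and 1.74%, with a median of -0.55. PSAT1 of serine synthesis (-1.69), CHAC1 (-1.40) and the transporter SLC7A5 (-1.32) led these. ATF4 mRNA itself was 131.9, 148.1 and 168.6 FPKM in sh-CFB, against 181.2, 167.3 and 152.5 FPKM in sh-NC (-0.16, limma adjusted p = 0.437). Its groups overlapped. As background, ATF4 is known to be controlled largely at translation. These libraries hold no measure of ATF4 protein, and the part of ATF4 in these differences was not tested.

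The promoters of these genes can be read for the core of the amino acid response element, TGATGNAA, searched on both strands. RefSeq promoter windows (GRCh38.p14, from 250 bases before to 50 bases after RefSeq's gene start) were on hand for 30 of the 35 members. LARS1, VARS1, YARS1, AARS2 and VARS2 had none. The motif was present in 7 of 16 cytosolic members and in 1 of 14 mitochondrial members (43.8% and 7.14%), while 3.62% of all 35116 promoter windows and 2.36% of 9026 tested genes hold it. Windows of 28 bases around each match are shown because the match is what these 8 genes have in common in this search, given 5′ to 3′ on the gene's strand, with the 8 bases of the match in capitals; TTGCATCA and TTTCATCA are matches on the other strand.
AARS1, chr16:70289676-70289703, reverse strand: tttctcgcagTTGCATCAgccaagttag
CARS1, chr11:3057408-3057435, reverse strand: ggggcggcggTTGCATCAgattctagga
GARS1, chr7:30594835-30594862, forward strand: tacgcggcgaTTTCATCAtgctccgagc
IARS1, chr9:92293693-92293720, reverse strand: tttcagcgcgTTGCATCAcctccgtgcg
MARS1, chr12:57488054-57488081, forward strand: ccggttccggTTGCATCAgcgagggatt
NARS1, chr18:57621805-57621832, reverse strand: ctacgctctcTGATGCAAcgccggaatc
TARS1, chr5:33440957-33440984, forward strand: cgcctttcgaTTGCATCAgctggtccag
YARS2, chr12:32756077-32756104, reverse strand: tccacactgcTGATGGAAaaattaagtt

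Of the 7 cytosolic matches 6 read TGATGCAA, and that of GARS1 reads TGATGAAA. Measured from the start that RefSeq gives, the match begins within 33 bases in CARS1, GARS1, IARS1, MARS1, NARS1 and TARS1, and 187 bases upstream in AARS1. The RefSeq start is not the end of the GENCODE 29 span: the windows of those 6 genes lie inside their GENCODE spans, that of MARS1 far inside, and the windows of AARS1 and YARS2 lie outside theirs. For AARS1 a longer stretch of 200 bases upstream is shown, since this gene had the lowest difference and its match lies furthest from the start among the cytosolic genes. The stretch begins 250 bases before the RefSeq start and ends short of that start.
AARS1, chr16:70289557-70289756, reverse strand: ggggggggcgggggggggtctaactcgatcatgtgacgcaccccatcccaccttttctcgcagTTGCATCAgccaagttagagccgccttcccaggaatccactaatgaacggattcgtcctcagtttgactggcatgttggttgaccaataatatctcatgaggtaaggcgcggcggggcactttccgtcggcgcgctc

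The 7 cytosolic members with a match had differences from -1.47 to -0.65 and a median of -0.95, and the 9 without ranged from -1.39 to 0.23 with a median of -0.59. WARS1, at -1.39, has no match in its window, and FARSB, at -1.06, has none either. Over all tested genes the 213 with a match had a median of -0.22 and 9.39% were called lower, against -0.16 and 6.41% for the 8813 without. A match is a run of letters and not a measured binding site.

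**Figure D4:**
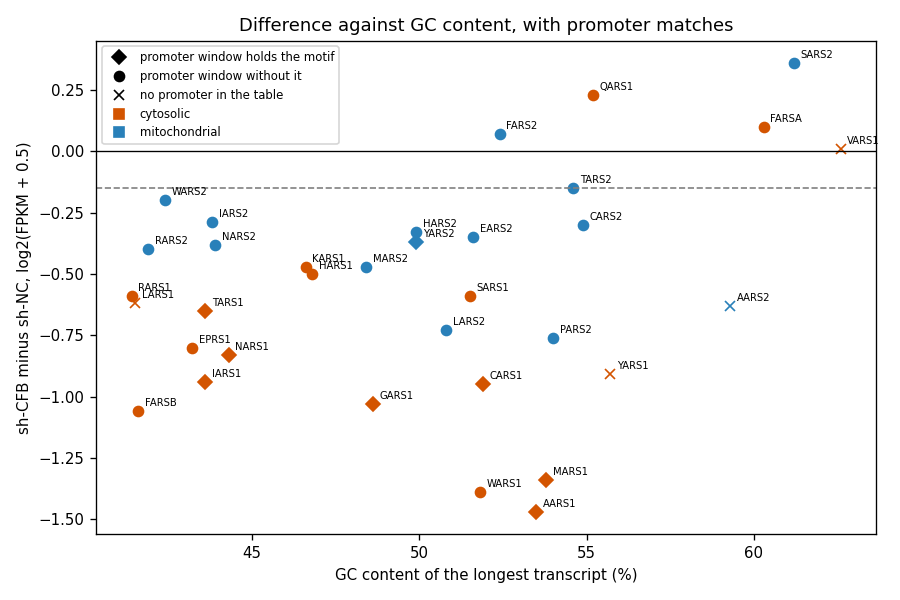
Difference of each tested synthetase (sh-CFB minus sh-NC, log2(FPKM + 0.5)) against the GC content of its longest transcript; diamonds mark promoter windows that hold TGATGNAA, circles those without, and crosses genes with no window. The diamonds other than YARS2 lie at -0.65 or lower, and the genes above 0 have GC contents of 52.4% to 62.6%.

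Across the 34 tested members the Spearman correlation between GC content and difference was 0.26, against 0.31 across all tested genes; genes in the same libraries share the GC trend of those libraries, and this is a description. AARS1, MARS1 and WARS1 have GC contents of 53.5%, 53.8% and 51.8%, above the median of 49.3% over tested genes. After removal of GC and length trends per library their differences were -1.29, -1.17 and -1.16, and they still passed the test.

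Around the synthetases, ELAC2 and EEF1A2 were the genes of the lists for making, mending or carrying charged tRNA that passed the test, where 5.71% of all tested genes were called lower and 1.74% higher. In the mitochondrial route that makes glutaminyl-tRNA indirectly and formylates the initiator (GATB, GATC, QRSL1 and MTFMT), 0 of 4 genes passed in limma and 0 with voom on recovered reads, with 3 lower at an unadjusted p under 0.05, and QRSL1 had the largest difference (-0.55, limma adjusted p = 0.102). Of the tRNA end-processing and export genes, ELAC2, the 3′ processing endonuclease, fell, with 13.5, 13.2 and 13.4 FPKM in sh-CFB, against 19.3, 20.4 and 20.7 FPKM in sh-NC (-0.57, limma adjusted p = 0.0151), and TRNT1 and XPOT did not pass. Among subunits of elongation factor 1, which takes charged tRNA to the ribosome, EEF1A2 rose, with 313.5, 264.2 and 272.9 FPKM in sh-CFB, against 187.0, 206.8 and 212.5 FPKM in sh-NC (0.49, limma adjusted p = 0.0387). EEF1A1 (-0.14), EEF1B2 (-0.28) and EEF1D (0.36) did not pass. Of the mitochondrial elongation factors, the selenocysteine enzymes and the synthetase relatives, 0 of 8 tested genes passed in limma and 0 with voom, with 0 lower or higher at an unadjusted p under 0.05 in limma and 1 lower with voom; GFM1 (-0.50), TARS3 (-0.15) and SEPSECS (-0.14) had the largest differences of their lists.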

How the data were processed

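RNA-seq of 6 NCI-H1299 libraries (3 sh-CFB, 3 sh-NC) was analysed from the table of FPKM values that the authors deposited. The submitters' processing notes list STAR 2.7.3a, featureCounts 2.0.1, FastQC 0.11.9 and Trimmomatic 0.39, and the build GRCh38. How strand and multiply matching reads were handled, which annotation was used and how FPKM were computed is not given in the sources used here. FPKM steps gave whole reads for 100.0% of the 28495 genes (tolerance 0.0001 reads), and with them the library totals. Recovered gene lengths were within 10% of the GENCODE 29 exon length for 84.8% of genes.

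The main test was limma 3.58.1 (R 4.3.3) with an intensity trend on log2(FPKM + 0.5), without a replicate block, for genes with a mean of at least 0.5 FPKM, Benjamini-Hochberg adjusted over 12466 genes. It called 712 genes lower and 217 higher in sh-CFB, and voom on the recovered reads called 529 lower and 149 higher. In simulated data of this comparison over 12466 genes, 33% of changes of 0.75 and 97% of changes of 1.5 on the log2 scale were called, with 6 false calls. The simulated noise was independent between genes and held no GC trend shared within a library, so these rates may not hold for the real libraries. Pair ratios were tested with exact permutation (scipy 1.17.1). Members and lists were chosen with earlier results of these data known. Per-library values are given for every member past the test and its partner, and in each compartment for the 3 largest and 3 smallest differences not past it; those of RARS1, VARS2 and DDIT3 and the ratio of FARSA to FARSB were added after their values were seen. Alternatives were other pseudocounts, filters and scalings, GC and length correction by splines with 5 degrees of freedom, voom, a replicate block and leaving out libraries. The rescaling of levels to annotated exon lengths was chosen after seeing the data.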

Additional observations from a re-analysis of the deposited data

How the results depend on the processing

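The count of cytosolic members that fell, 11 as reported, was 7 with median-of-ratios factors, 7 with no filter on low values, 7 with voom and median-of-ratios factors, 8 without both replicate 1 libraries and 0 to 12 when 1 library was left out. The mitochondrial count, 3 as reported, was 0 with equal totals, 0 with median-of-ratios factors, 0 with no filter, 1 with voom and median-of-ratios factors, 1 without both replicate 1 libraries and 0 to 0 when 1 library was left out. The median member difference, -0.54 as reported, was -0.27 after GC and length correction, -0.35 with median-of-ratios factors, -0.36 with voom and those factors, -0.39 without both replicate 1 libraries and -0.60 to -0.43 when 1 library was left out. The median of all tested genes was -0.15 as reported, 0.01 after GC and length correction and 0.02 under median-of-ratios scaling. Relative to it the cytosolic median was -0.65 as reported, -0.55 after the correction and -0.63 under median-of-ratios scaling. The median pair ratio ran from -0.68 to -0.43 when 1 library was left out. Same-numbered replicates did not deviate together (r = -0.539, 0.068 and -0.448 for numbers 1, 2 and 3). The GC trends of the libraries enter these values (Spearman 0.60 for sh-CFB replicate 1 and -0.55 for sh-NC replicate 1). They therefore cannot show whether same-numbered libraries shared a culture or batch. With a replicate block, limma called 0 cytosolic and 0 mitochondrial members (15 and 3 lower at an unadjusted p under 0.05) and 0 of all tested genes. With the block and GC and length correction it also called 0 and 0 (14 and 3 lower unadjusted), with a median of -0.27. Directions turned for few members. FARSA was at -0.22 without both replicate 1 libraries and -0.10 to 0.24 with 1 library left out. VARS1 was at -0.05 with equal totals, -0.08 after GC and length correction with or without the block, -0.18 without both replicate 1 libraries and -0.12 to 0.11 with 1 library left out. IARS2 came to 0.00 without both replicate 1 libraries. TARS2 was at 0.00 after the correction with or without the block, 0.05 with median-of-ratios factors and 0.06 with voom and those factors. WARS2 was at 0.06 after the correction with or without the block. The EPRS1/PARS2 ratio was at 0.00 with a pseudocount of 0.1, 0.18 without both replicate 1 libraries and -0.33 to 0.19 with 1 library left out, and FARSA/FARS2 at -0.31 and -0.18 to 0.18. The cause was not tested for any of these. VARS2 and CFB held few reads in every library, and the cause of that was not tested either.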
